A study of Mus musculus with 4 samples.

Results

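Hedgehog signalling was followed through 9 genes in the fetal mouse pancreas: the ligands Shh, Ihh and Dhh, the receptor Ptch1, the signal transducer Smo, the transcription factors Gli1, Gli2 and Gli3, and the ligand-binding inhibitor Hhip. They were taken by symbol from the 54532 gene IDs of the deposited tables, and all 9 were found. The samples came from wild-type C57BL/6 mice at 4 embryonic stages, E11.5 and E13.5 followed by E15.5 and lastly E18.5 (days of embryonic development), with no mutant and no treated group. The labels name the tissue as fetal pancreas and the series text names its epithelium, while no source used here states how the epithelium was taken from the rest of the organ. Each stage is 1 labelled sample, and the values are the authors' mean FPKM. FPKM is a count of sequenced fragments normalised for exon length and for a denominator of the library, which is described under processing. Multiplied by exon length, nearly every mean turned out to be a sum of whole reads of 2 libraries, so each stage was separated into 2 libraries and all 9 genes could be separated in all 8. No label says whether these 2 libraries came from separate embryos or litters, so every SD and p-value below measures only the spread between these libraries, which may be technical.

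In this pathway a secreted Hedgehog ligand binds Patched, which otherwise holds the membrane protein Smoothened inactive, and active Smoothened changes how the Gli factors are processed, so that target genes are transcribed. Ptch1, Gli1 and Hhip are themselves well-known targets of the pathway, and Hhip and Patched both take ligand away from neighbouring cells. During gut development the endoderm is a source of Shh and Ihh and the surrounding mesenchyme responds to them, while the endoderm that forms the pancreas is known for keeping Shh low. Ligand and response are therefore often found in different cell layers.

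The pathway was present at a low level throughout. Levels were scaled between stages by the median ratio over 9884 genes and are called scaled FPKM. The summed scaled FPKM of the 9 genes went from 16.2 in the E11.5 sample through 15.9 and 8.98 to 5.88 in the E18.5 sample, and Smo alone made up 37.8%, 48.3%, 65.6% and 71.3% of it. The 3 Gli genes were high only in the E11.5 libraries, Ihh and Hhip were highest at E13.5, Ptch1 stayed within 0.986 to 1.58, and by E18.5 only Smo and Ptch1 were at 1 scaled FPKM or more. The plots of the members by stage show these courses.

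**Figure D1:**
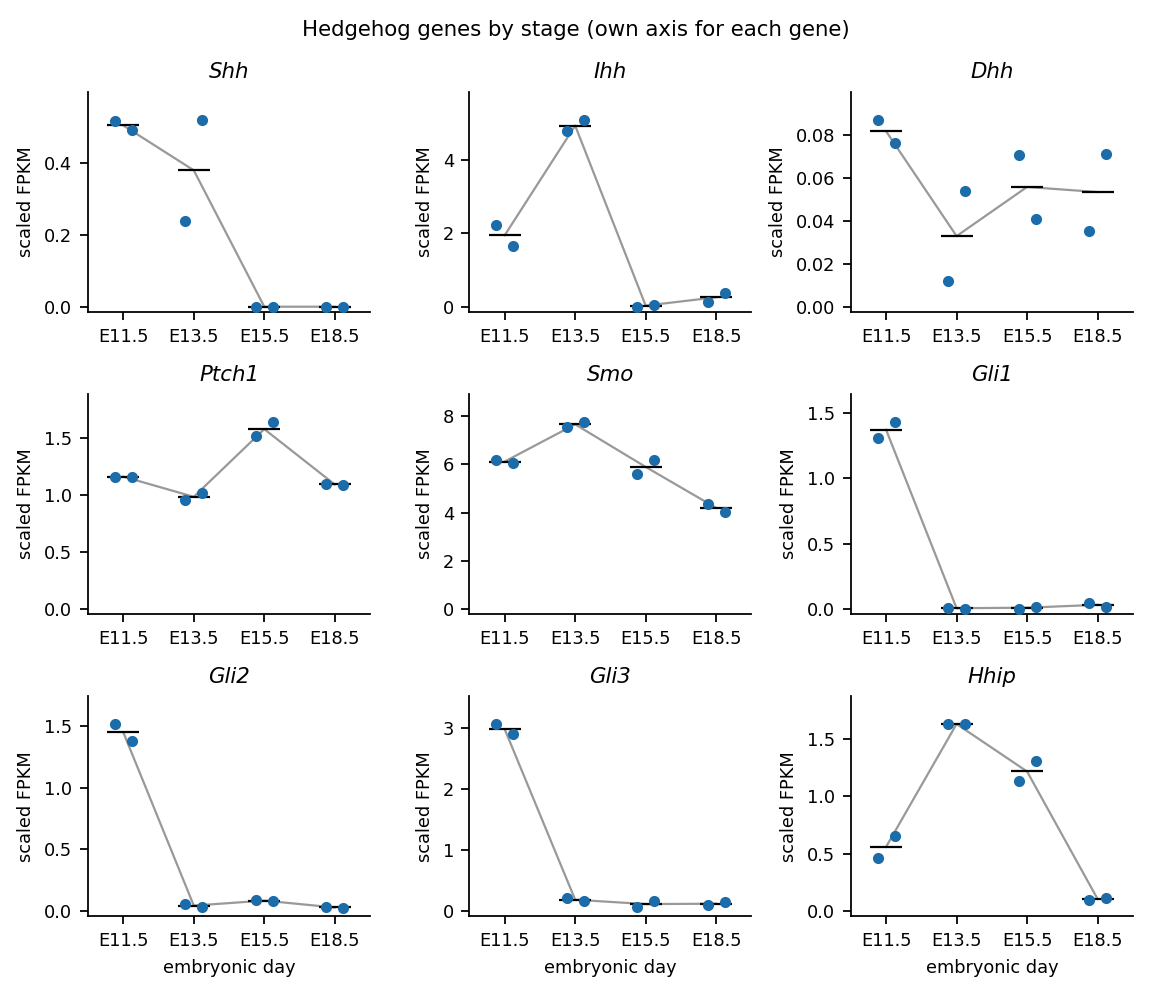
Scaled FPKM of each Hedgehog gene at each of the 4 stages, on a linear axis of its own for each gene; points are the 2 recovered libraries of a stage, short black bars are the stage means and grey lines join them. Gli1, Gli2 and Gli3 drop after E11.5, Ihh drops after E13.5 and Hhip after E15.5, while Smo stays between 4.19 and 7.67.

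The sequences just upstream of the RefSeq starts of 4 of these genes are shown. They were chosen because Gli2 and Gli3 fell together after E11.5 and Ihh and Hhip both peaked at E13.5. Each is the 250 bases before the RefSeq start in the mouse build GRCm38.p6, read 5′ to 3′ on the gene's strand, with capitals marking CG dinucleotides. Gli2 is at chr1:119053620-119053869 on the minus strand, Gli3 at chr13:15463473-15463722 on the plus strand, Ihh at chr1:74951673-74951922 on the minus strand and Hhip at chr8:80058009-80058258 on the minus strand. In the GENCODE annotation used for the levels, Gli3 spans chr13:15463235-15730026. Its window therefore lies inside that gene and is upstream of the RefSeq start only.
Gli2: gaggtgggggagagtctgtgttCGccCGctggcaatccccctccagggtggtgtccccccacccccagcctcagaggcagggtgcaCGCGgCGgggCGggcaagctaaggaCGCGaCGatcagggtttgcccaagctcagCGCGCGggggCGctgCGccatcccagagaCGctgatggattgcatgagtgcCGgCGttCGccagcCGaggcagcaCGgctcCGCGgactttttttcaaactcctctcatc
Gli3: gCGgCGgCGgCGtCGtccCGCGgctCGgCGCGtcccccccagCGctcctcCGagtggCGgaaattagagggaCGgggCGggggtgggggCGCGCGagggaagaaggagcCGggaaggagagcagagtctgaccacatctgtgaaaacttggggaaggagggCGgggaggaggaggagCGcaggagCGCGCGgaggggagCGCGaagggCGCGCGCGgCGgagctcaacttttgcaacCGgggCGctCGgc
Ihh: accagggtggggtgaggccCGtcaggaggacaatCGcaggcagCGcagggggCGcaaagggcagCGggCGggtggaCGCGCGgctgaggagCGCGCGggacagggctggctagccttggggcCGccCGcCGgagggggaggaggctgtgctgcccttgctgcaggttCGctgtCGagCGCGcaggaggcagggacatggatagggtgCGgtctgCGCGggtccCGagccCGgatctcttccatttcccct
Hhip: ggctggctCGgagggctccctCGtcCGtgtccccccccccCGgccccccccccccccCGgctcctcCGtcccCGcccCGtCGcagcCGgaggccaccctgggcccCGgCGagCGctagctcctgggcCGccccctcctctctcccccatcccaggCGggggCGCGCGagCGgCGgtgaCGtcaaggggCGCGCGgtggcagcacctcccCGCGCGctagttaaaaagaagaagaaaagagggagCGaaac
All 4 were rich in CG: Gli2 had 22 CG dinucleotides, Gli3 had 34, Ihh had 24 and Hhip had 28, against a median of 6 (quartiles 2 and 16) over 32851 RefSeq windows. Windows were present for 7 of the 9 genes (all but Shh and Gli1), and Ptch1 had 41, Smo 15 and Dhh 9. The counts of the pair that peaked at E13.5 lay between those of the pair that fell after E11.5. The 9 letters GACCACCCA, the consensus that Gli proteins bind, were searched on both strands of the same windows extended to 50 bases after the start. None of the 7 windows held it, nor a copy with 1 mismatch, against 0.253% and 6.74% of all windows. A match in these windows would describe sequence only, and its absence says only that these letters are not in them.

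Before the genes are compared, the makeup of the libraries has to be given, because the E11.5 sample stood apart. The 14 pancreatic epithelium markers summed to 985 scaled FPKM at E11.5 and to 4170, 11320 and 5804 at the later stages, and Pdx1, the master regulator of the pancreas, was 2.94 at E11.5 against 60.7 to 79.1 later. Most markers of some other tissues were highest at E11.5: 13 of 15 mesenchyme markers (sum 287 against 51.5 to 87.4 later), 10 of 11 neural markers (1295 against 18.6 to 53.8) and 9 of 9 otic markers (1369 against 0.683 to 2.45). The otic gene Oc90, a protein of the inner ear's otoconia, was 1252 at E11.5 and at most 0.0438 later. Erythroid markers summed to 9780 at E11.5 and 266 to 639 later, and endothelial markers never passed 2.20. Of 8 liver markers 5 were highest at E11.5 (sum 641 against 376 to 568 later). Most of the later liver sums was Ttr, which was 44.4, 322, 534 and 492 from E11.5 to E18.5. Of 11 gut and stomach markers 2 were highest at E11.5. Of 6 mesothelium markers 4 were highest at E11.5. Their sum was lowest there (33.8 against 38.1 to 146 later) through Krt7, which was 8.21 at E11.5 and 37.2 to 143 later. Of 10 leukocyte markers 8 were highest at E11.5, while their sum (76.9, 19.5, 185 and 91.2) peaked at E15.5 through C1qa, a complement gene of macrophages, which was 5.13, 13.3, 176 and 66.4. The list did not share this peak: C1qb, another complement gene on it, was 23.4, 1.25, 1.17 and 10.1. By limma, a test described below, 2 of 9 tested leukocyte markers rose and none fell from E13.5 to E15.5. Each comparison with E11.5 therefore sets a sample with many non-pancreatic transcripts against samples with few, and in these bulk samples fewer cells of a type and less RNA per cell cannot be told apart.

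A difference was called by size where scaled FPKM differed 2-fold or more and the higher stage reached 5. Over 14840 genes that reached 1 FPKM at some stage, this rule called 6.6% higher and 6.44% lower at E13.5 than at E11.5, 4.29% and 2.06% at E15.5 against E13.5, 7.3% and 6.26% at E18.5 against E15.5, and 11.2% and 8.52% at E18.5 against E11.5. It called none of the 9 Hedgehog genes in any comparison, since only Smo reached 5 scaled FPKM and Smo never changed 2-fold. Ihh came nearest, at 4.93 at E13.5, and on the deposited values without further scaling it was 5.07 there and was called. The second call is limma, a linear model with a shared estimate of the spread, on log2(scaled FPKM + 1) of the 8 libraries, at an adjusted p of 0.05 over 28226 genes. On that scale the change of a gene below 1 FPKM is compressed, so folds of the scaled FPKM are given beside it. The comparisons share stages and are not independent of each other.

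By limma, 3 of the 9 genes rose and 3 fell from E11.5 to E13.5, where 14.6% of all tested genes rose and 23.5% fell. From E13.5 to E15.5, 1 rose and 3 fell, against 12.9% and 11.3% of all genes. From E15.5 to E18.5 none rose and 3 fell, against 19.4% and 14.2%. Between the ends, E11.5 and E18.5, none rose and 7 fell, against 19.9% and 23.7%. Genes with a highest stage of 0.5 to 8 FPKM, a band that holds all members but Dhh, were called in either direction more often than all genes, in 48.4%, 28.9%, 44% and 57.1% of cases in the same order of comparisons, against 38.1%, 24.2%, 33.6% and 43.6% of all genes tested. An alternative test of the whole reads, limma voom, called 61.2%, 40.7%, 49.3% and 64% of 20083 genes. The median log2 difference of the 9 genes between the ends was -0.59, against 0 over all genes at 1 FPKM or more.

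**Figure D2:**
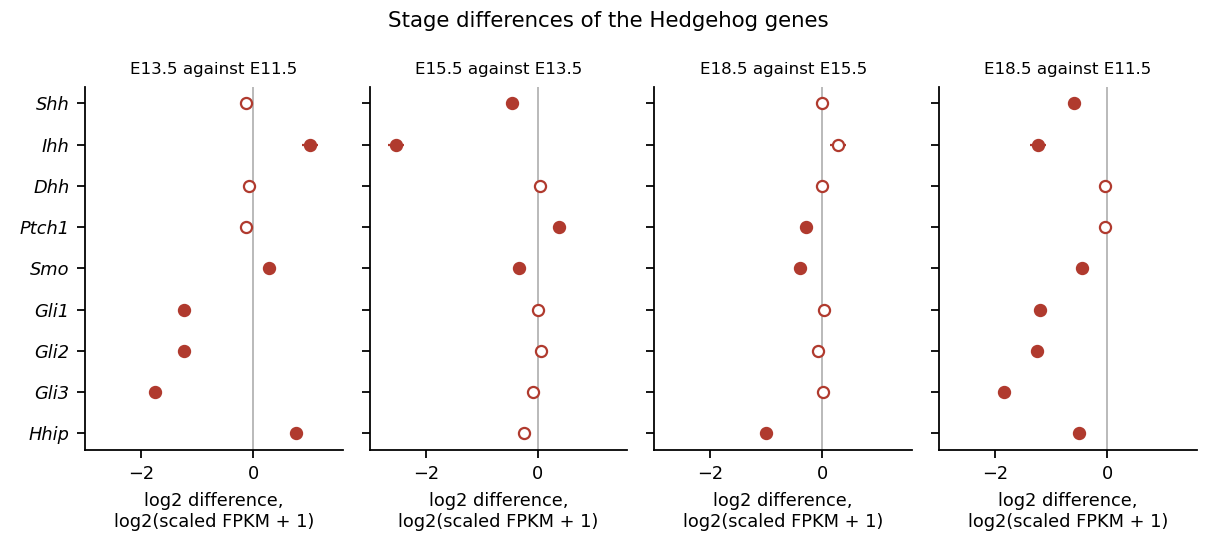
Difference in log2(scaled FPKM + 1) of each Hedgehog gene in the 4 stage comparisons, later minus earlier stage, with the standard error of the limma fit over 2 libraries a stage, which is mostly narrower than the points; filled points have an adjusted p under 0.05. The 3 Gli genes lie between -1.75 and -1.23 in the first comparison, and Ihh is at -2.53 in the second.

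Among the ligands, Ihh made up most of the summed transcript level in 3 of the 4 stages. The summed level of Shh, Ihh and Dhh was 2.53 scaled FPKM to begin with, 5.35 by E13.5, 0.0851 by E15.5 and 0.310 in the last stage. Ihh made up 76.8%, 92.3%, 34.6% and 82.8% of it. The shares at E15.5 and E18.5 rest on few reads, 2 and 20 of Ihh beside 6 and 6 of Dhh. Ihh (ENSMUSG00000006538, chr1:74945315-74951672, minus strand) encodes Indian hedgehog, known for its part in gut and growth plate development. Its scaled FPKM was 1.95 ± 0.416 at E11.5 (SD, n = 2 libraries, 125 and 90 reads), 4.93 ± 0.225 in the E13.5 libraries (278 and 262 reads), 0.0294 ± 0.0416 by E15.5 (0 and 2 reads) and 0.257 ± 0.182 by E18.5 (5 and 15 reads). The libraries of neighbouring levels did not overlap, and E13.5 lay above all other stages. Ihh was 2.54-fold higher at E13.5 than at E11.5, a rise of 1.02 ± 0.14 (SE) on the log2(scaled FPKM + 1) scale with an adjusted p of 0.00246 (0.0549 with a pseudocount of 0.1). It then fell by 2.53 ± 0.14 to E15.5 (adjusted p = 0.000242). In reads this was a 168-fold drop, with an exact 95% interval of 46.2 to 1388 that covers counting error only. Its 8.72-fold higher value at E18.5 than at E15.5 (interval 2.12 to 77.0) did not pass the test (adjusted p = 0.211), but it passed with limma voom on the recovered reads (adjusted p = 0.0193).

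Shh (ENSMUSG00000002633, chr5:28456815-28467256, minus strand), the ligand that the pancreatic endoderm is known to exclude, was low at every stage. Its scaled FPKM was 0.505 ± 0.0190 at E11.5 (27 and 25 reads) and 0.380 ± 0.199 at E13.5 (13 and 25 reads), and the libraries of these stages overlapped (adjusted p = 0.352). Without E13.5 library 2 the difference was -0.28 and passed (adjusted p = 0.00293). No library held a Shh read at E15.5 or E18.5. A count of 0 over both libraries was set to a floor of 3 reads, which is 0.0441 scaled FPKM at E15.5 and 0.0412 at E18.5. Against that floor Shh was 8.61-fold lower at E15.5 than at E13.5 and 12.3-fold lower at E18.5 than at E11.5. These folds leave out the counting error of the earlier stage and are not strict lower bounds. The exact 95% upper limit at E15.5 was 0.0542, and the lower limit at E13.5 was 0.269. Its fall from E13.5 to E15.5 was 0.46 ± 0.096 (adjusted p = 0.0206), but it was lost in 6 of the 8 fits that leave out 1 library, all but those without an E13.5 library, with adjusted p up to 0.0964. The fall between the ends was 0.59 ± 0.096 (adjusted p = 0.00396). Exons of Shh share 361 and 446 of their 2847 bases with the opposite-strand genes Gm26894 and 9530036O11Rik, and the sources used here do not say whether counting used strand. Gm26894 was itself at 0.267, 0.388, 0 and 0.

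Dhh (ENSMUSG00000023000, chr15:98891152-98898540, minus strand), Desert hedgehog, known from testis and peripheral nerve, had 1 to 7 reads a library. Its scaled FPKM was 0.0816 ± 0.00752, 0.0329 ± 0.0297, 0.0557 ± 0.0211 and 0.0533 ± 0.0253 from E11.5 to E18.5. The E11.5 libraries lay above all others and the later stages overlapped, and no comparison passed the test (adjusted p from 0.186 to 1). Of its 4399 exon bases 546 are shared with the same-strand gene Rhebl1, which stood at 9.15, 1.98, 0.668 and 1.52, so that reads in this stretch belong to either gene and the level of Dhh is uncertain.

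Markers of gut and stomach epithelium, the neighbouring endoderm known to make Shh and Ihh, were set beside the ligands. As a list of 11 they did not share their course. Their sum was 21.4, 10.8, 19.2 and 35.8 scaled FPKM, with 5, 1, 4 and 4 of them at 0. Most of this sum was Sox2 at E11.5 (19.6) and Tff2 at E15.5 (9.84) and E18.5 (27.4), so the sum does not show the course of the other markers. By limma 2 of 10 tested markers rose and 3 fell from E13.5 to E15.5. Sox2 and Cdx2, named after their values were seen, did drop over the same step. Sox2, a factor of stomach and other foregut epithelium that is also on the otic list, was 19.6 ± 1.22, 1.40 ± 0.107, 0 and 0, and it fell by 1.26 ± 0.065 from E13.5 to E15.5 (adjusted p = 0.000200). Cdx2, the intestinal homeobox factor, was 0.489 ± 0.0773, 1.57 ± 0.0366, 0.0912 ± 0.0168 and 0.0691 ± 0.000229, and it fell by 1.24 ± 0.066 (adjusted p = 0.000221). Tff2, a stomach mucosal peptide, and Cldn18, a claudin of stomach epithelium, rose over this step, Tff2 from 0.505 to 9.84 (adjusted p = 0.000471) and Cldn18 from 2.36 to 4.04 (adjusted p = 0.0136). Cartilage, where Ihh is known, and notochord and floor plate, where Shh is, had courses of their own: cartilage markers without Ihh summed to 355, 134, 55.5 and 127, and notochord and floor plate markers without Shh to 4.52, 70.8, 52.0 and 72.8, with Sox9 and Foxa2 of these lists also pancreatic markers. The part of gut, cartilage or notochord cells in the level of Ihh and Shh was not tested.

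The genes with the course most like that of Ihh were sought by the root mean square distance between profiles of log2(scaled FPKM + 1) over the 4 stages, each about its own mean, among 4839 genes of like mean level. The nearest were Foxa1, a forkhead factor of endoderm, and Nkx6-3, a homeobox factor known from the stomach antrum. Foxa1 was 2.11, 3.397, 0.0404 and 0.0821, at a distance of 0.20, and Nkx6-3 was 1.71, 4.98, 0.334 and 0.576, at a distance of 0.21. No candidate came within 0.1. This is a description over 4 stages that all rest on the same libraries.

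**Figure D3:**
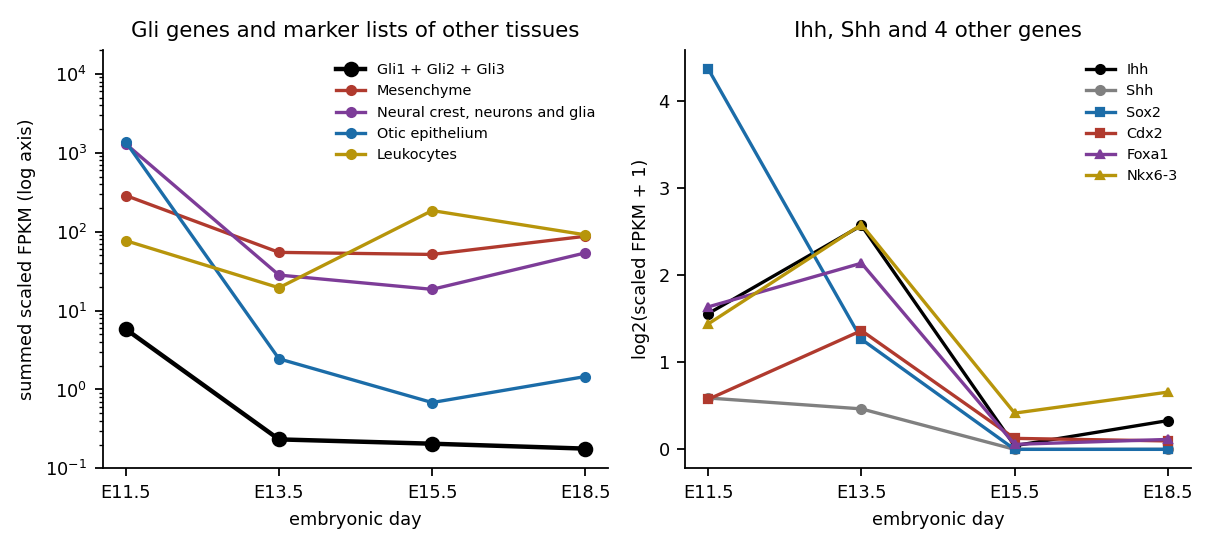
Left, the summed scaled FPKM (log axis) of the 3 Gli genes and of marker lists of other tissues by stage; right, log2(scaled FPKM + 1) of Ihh and Shh beside the gut factors Sox2 and Cdx2 and beside Foxa1 and Nkx6-3, the genes nearest to Ihh. The Gli sum falls from 5.81 to 0.233 in the step in which the mesenchyme sum falls from 287 to 54.7 and the otic sum from 1369 to 2.45. Vim alone is 112 of the mesenchyme sum at E11.5 and 43.8 at E13.5. The 4 genes set beside Ihh and Shh were chosen by or after their values, and other gut markers, such as Tff2, were higher at E15.5 than at E13.5; the leukocyte peak at E15.5 is C1qa.

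At the receptor, neither Ptch1 nor Smo changed by more than 1.604-fold in any of the 4 comparisons. Ptch1 (ENSMUSG00000021466, chr13:63508328-63573598, minus strand), the main Hedgehog receptor and a target of its own pathway, was 1.16 ± 0.000107 scaled FPKM at E11.5 (302 and 295 reads), 0.986 ± 0.0417 by E13.5 (259 and 243 reads), 1.58 ± 0.0899 by E15.5 (277 and 260 reads) and 1.09 ± 0.000281 by E18.5 (199 and 198 reads). It was highest at E15.5, where both libraries lay above all others, in the stage at which the summed ligands were lowest, but which stage is highest depends on the scaling. Ptch1 was 1.604-fold higher at E15.5 than at E13.5, a rise of 0.38 ± 0.060 (adjusted p = 0.00769), and it fell by 0.30 ± 0.060 to E18.5 (adjusted p = 0.0123). Between the ends it differed by 1.06-fold (adjusted p = 0.593). These calls rest on the scaling between stages: when every library was given the same total, the rise to E15.5 was 0.03 (adjusted p = 0.838) and the later fall 0.18 (adjusted p = 0.0669), while E13.5 against E11.5 was -0.21 (adjusted p = 0.0311), which makes E11.5 the highest stage. That scaling moved the median of all genes at 1 FPKM or more from 0 to -0.41 in the comparison of E15.5 with E13.5, from -0.03 to -0.14 in that of E13.5 with E11.5, from 0.04 to 0.15 in that of E18.5 with E15.5 and from 0 to -0.46 between the ends.

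Smo (ENSMUSG00000001761, chr6:29735503-29761365, plus strand), the membrane protein that passes the signal on, was the highest of the 9 genes at every stage. Its scaled FPKM was 6.12 ± 0.0857 (636 and 609 reads), 7.67 ± 0.145 (812 and 737 reads), 5.89 ± 0.420 (405 and 388 reads) and 4.19 ± 0.232 (314 and 289 reads) from E11.5 to E18.5. The libraries of E11.5 and E15.5 overlapped, and the other neighbouring levels did not. Smo rose by 0.28 ± 0.055 from E11.5 to E13.5 (adjusted p = 0.00976), fell by 0.33 ± 0.055 to E15.5 (adjusted p = 0.00919) and fell by 0.41 ± 0.055 to E18.5 (adjusted p = 0.00270), each a change of 1.25-fold to 1.41-fold. The first of these was lost without E11.5 library 2 (adjusted p = 0.0613), without E13.5 library 2 (adjusted p = 0.0608) and with libraries set to the same total (adjusted p = 0.0533). The second was lost without E13.5 library 2 (adjusted p = 0.0615). The ratio of Smo to Ptch1, both per length, was 5.26, 7.78, 3.73 and 3.83.

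Smo and Ptch1 had courses that many genes shared. Among genes of like level, 165 of 4860 lay within 0.1 of Ptch1 by the distance above and 30 of 4637 within 0.1 of Smo. The nearest to Ptch1 were Atrn (0.850, 0.703, 1.30 and 0.846) and Anks1, and the nearest to Smo were Utp6 and Cstf2.

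Hhip (ENSMUSG00000064325, chr8:79965851-80058006, minus strand) encodes a membrane-anchored protein that binds all 3 ligands and dampens signalling, and it is known as a pathway target. It was 0.558 ± 0.134 scaled FPKM at E11.5 (77 and 106 reads), 1.63 ± 0.000356 by E13.5 (283 and 250 reads), 1.22 ± 0.124 by E15.5 (132 and 132 reads) and 0.103 ± 0.0125 by E18.5 (11 and 13 reads). The libraries of no pair of stages overlapped. Hhip rose 2.92-fold from E11.5 to E13.5, by 0.76 ± 0.089 on the log2 scale (adjusted p = 0.00125), and fell 11.8-fold from E15.5 to E18.5, by 1.01 ± 0.089 (adjusted p = 0.000536). The step between, from E13.5 to E15.5, was -0.25 ± 0.089 (adjusted p = 0.111). That step was called under 3 of 14 other settings, with libraries set to the same total (-0.60, adjusted p = 0.00414), with limma voom on the recovered reads (-0.43, adjusted p = 0.0162) and over genes at 1 FPKM or more only (adjusted p = 0.0439). Between the ends Hhip fell 5.40-fold (0.50 ± 0.089, adjusted p = 0.00595).

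Hhip and the ligands thus parted after E13.5: at E15.5 Hhip still had 132 reads in each library while Ihh had 0 and 2. Relative to the receptor, the ratio of Hhip to Ptch1 was 0.398 and 0.562 in the E11.5 libraries, 1.71 and 1.61 in those of E13.5, 0.745 and 0.793 in those of E15.5, and 0.0864 and 0.103 in those of E18.5. This ratio needs no scaling between stages, its libraries overlapped in no pair of stages, and it was above 1 only at E13.5. The nearest courses among 4078 genes were those of the histone gene Hist1h2ab (0.590, 1.53, 1.38 and 0.0828) and the potassium channel gene Kcnh1 (0.762, 1.52, 1.505 and 0.208), the only 2 within 0.1. Hist1h2ab belongs to a family of near-identical copies and its own level is uncertain.

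The Gli genes, which carry the response in the nucleus, gave the largest folds in the step from E11.5 to E13.5 among the 9 genes. Their summed scaled FPKM was 5.81, 0.233, 0.205 and 0.178. Gli3 made up 51.4%, 78.9%, 54.5% and 66.5% of that sum. In each of the 3 genes both E11.5 libraries lay above every later library.

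Gli1 (ENSMUSG00000025407, chr10:127329882-127341974, minus strand), a transcriptional activator whose own transcription is the usual readout of the pathway, was 1.37 ± 0.0855 at E11.5 (120 and 128 reads). Later it was 0.00524 ± 0.00741 (1 and 0 reads), 0.00898 ± 0.0127 (0 and 1 reads) and 0.0313 ± 0.0220 (3 and 1 reads). The drop to E13.5 was 262-fold, with an exact 95% counting interval of 46.6 to 10385, and 1.24 ± 0.049 on the log2 scale (adjusted p = 2.27e-05). The E15.5 libraries overlapped with those of E13.5 and E18.5, and no later step passed the test (adjusted p = 1 and 0.735).

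Gli2 (ENSMUSG00000048402, chr1:118834132-119053619, minus strand), the main activator before Gli1 is made, was 1.45 ± 0.0953 at E11.5 (191 and 170 reads), then 0.0439 ± 0.0133 (7 and 4 reads), 0.0844 ± 0.00857 (8 and 6 reads) and 0.0284 ± 0.00795 (3 and 2 reads). It was 33.0-fold lower at E13.5 and fell by 1.23 ± 0.052 (adjusted p = 2.74e-05). Gli3 (ENSMUSG00000021318, chr13:15463235-15730026, plus strand), whose processed form is a repressor, was 2.98 ± 0.121 (539 and 497 reads), then 0.184 ± 0.0413 (39 and 25 reads), 0.112 ± 0.0666 (8 and 17 reads) and 0.118 ± 0.0292 (12 and 17 reads). It was 16.2-fold lower at E13.5 and fell by 1.75 ± 0.078 (adjusted p = 3.18e-05). No later step of Gli2 or Gli3 passed the test (adjusted p from 0.348 to 1). Between the ends Gli1 was 43.9-fold, Gli2 51.0-fold and Gli3 25.2-fold lower, and each fell under all 14 other settings as it did from E11.5 to E13.5.

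The fall of the Gli genes came in the same step as that of the markers of other tissues. From E11.5 to E13.5, 11 of 13 tested mesenchyme markers fell and none rose, as did 6 of 7 neural markers and 8 of 8 otic markers, while 7 of 7 tested pancreatic epithelium markers rose. Twist1, a mesenchymal transcription factor named after its values were seen, was 140-fold lower at E13.5, and Lum, which encodes a matrix proteoglycan, was 124-fold lower. Over the 3 later stages the mesenchyme sum was 54.7, 51.5 and 87.4, while the Gli sum was 0.233, 0.205 and 0.178. Vim alone gave 43.8, 27.5 and 36.6 of the mesenchyme sum, and the list did not move as a whole. Of 13 tested markers 6 rose and none fell from E13.5 to E15.5, and 6 rose and 1 fell to E18.5. Lum was 0.339, 2.15 and 11.4 over these stages, while Foxf1 was 0.379, 0.183 and 0.0809. Whether the Gli transcripts of the E11.5 sample came from pancreatic epithelium or from the other tissues in it cannot be told apart here. The genes with the nearest courses to the Gli genes were Nkx1-1 and Sall3 for Gli1, Lhx3 and Necab3 for Gli2, and Clvs1 and the skeletal muscle regulator Myod1 (2.72, 0.0937, 0 and 0) for Gli3. Within 0.1 lay 140 of 2620 genes for Gli1, 125 of 2769 for Gli2 and 62 of 3527 for Gli3.

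Other genes of the pathway were taken as 5 lists of 86 matched genes in all, 75 of them at 1 FPKM or more in any stage. By the rule of size 1 of these 75 was higher and 10 were lower at E13.5 than at E11.5, 0 and 2 at E15.5 against E13.5, 6 and 2 at E18.5 against E15.5, and 3 and 12 at E18.5 against E11.5. The shares of all genes under this rule were 6.6% and 6.44%, 4.29% and 2.06%, 7.3% and 6.26%, and 11.2% and 8.52%. The numbers higher were thus near the share of all genes from E15.5 to E18.5 and below it in the other comparisons, and the 2 lower at E15.5 than at E13.5 were near it.

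**Figure D4:**
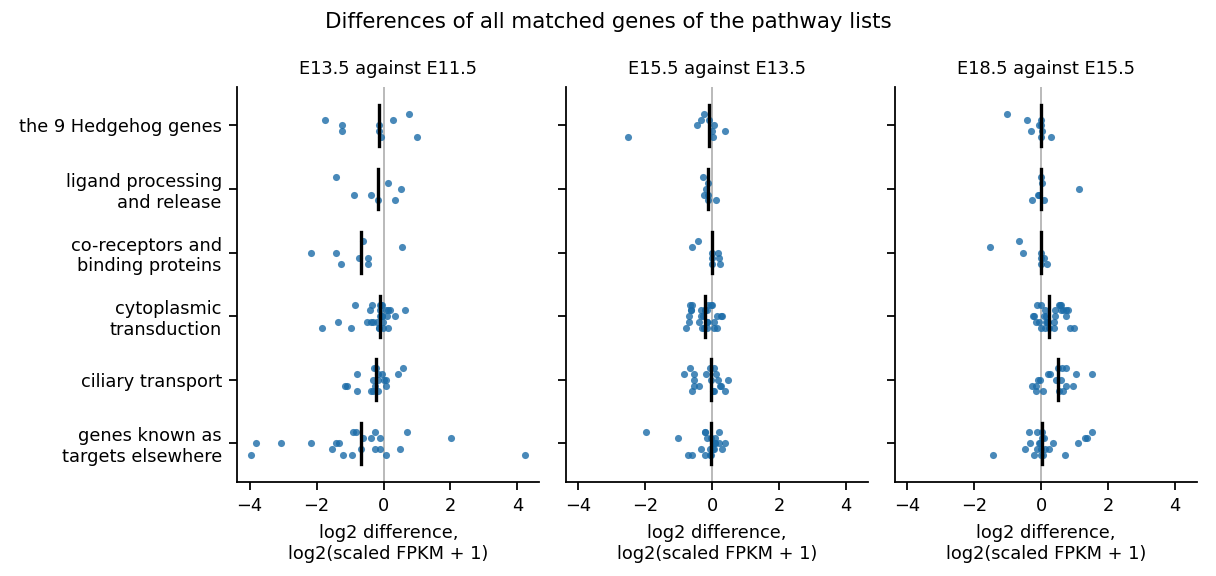
Difference in log2(scaled FPKM + 1), later minus earlier stage, of every matched gene of the 9 Hedgehog genes and of 5 lists of other pathway genes, in the 3 comparisons of neighbouring stages; each point is a gene and the black bars are the medians. The co-receptor median is -0.67 at E13.5 against E11.5, and the medians of the transduction and ciliary transport lists are 0.23 and 0.52 at E18.5 against E15.5.

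The co-receptors and binding proteins, which present ligand to Patched or hold it, all fell early where they could be tested: 7 of 7 from E11.5 to E13.5 and 7 of 7 between the ends, where 23.5% and 23.7% of all genes fell, with a median log2 difference of -0.67 over the 8 listed in the first step against -0.03 over all genes at 1 FPKM or more. Gas1, a GPI-anchored co-receptor, was 48.9 ± 0.873, 10.1 ± 0.0360, 11.6 ± 0.928 and 7.64 ± 0.193, a 4.83-fold drop in the first step (2.16 ± 0.054, adjusted p = 5.78e-06). Boc, its partner co-receptor, was 1.75, 0.129, 0.315 and 0.483 (adjusted p = 0.00159 for the first step), and Cdon was 1.38, 0.440, 0.666 and 0.785 (adjusted p = 0.00330). Lrp2, Gpc6 and Ptchd1 also fell, and the fall of Gpc6 (adjusted p = 0.0114) was lost in 3 of the 8 fits that leave out 1 library. Gpc3, a glypican that competes with Patched for ligand, was higher at E13.5 than at E11.5, at 230, 335, 222 and 75.5. Its libraries could not be separated and it has no test.

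Of the 7 genes that process or release ligand, 2 rose and 4 fell from E11.5 to E13.5, where 14.6% of all genes rose and 23.5% fell and 48.4% of genes with a highest stage of 0.5 to 8 FPKM were called. Scube1 (2.63, 0.354, 0.116 and 0.111) and Scube3 (1.61, 0.406, 0.174 and 0.106), secreted proteins that help shed ligand, both fell in the first step (adjusted p = 0.000112 and 0.000190). Disp1, the transporter that releases ligand from the cell making it, fell from 2.47 to 1.68 (adjusted p = 0.0140), a call lost in 3 of the 8 fits that leave out 1 library. Disp2, its relative, was 0.416, 1.03, 0.762 and 2.89, and it rose from E11.5 to E13.5 (adjusted p = 0.00633) and from E15.5 to E18.5 (adjusted p = 0.000364). Hhat, the acyltransferase that ligands need, stayed between 0.710 and 0.884 and passed no test (adjusted p from 0.306 to 1).

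Transduction genes, from Sufu to the kinases and ubiquitin ligases that act on Gli proteins, moved in both directions. Of 25 tested, 2 rose and 7 fell from E11.5 to E13.5, 0 and 9 from E13.5 to E15.5, and 12 and 1 from E15.5 to E18.5. Over all genes 14.6% rose and 23.5% fell in the first step, 12.9% and 11.3% in the second, and 19.4% and 14.2% in the third. The first-step counts are thus near or below the share of all genes. Of genes with a highest stage of 0.5 to 8 FPKM, 48.4%, 28.9% and 44% were called in either direction. Some listed genes, such as Spop, lie above that band. Arrb2, a beta-arrestin that moves with Smoothened, fell 2.94-fold in the first step, from 12.3 ± 0.0839 to 4.17 ± 0.0875 (adjusted p = 0.000635). Csnk1e, a kinase that could not be separated and has no test, was 46.6, 12.4, 6.71 and 14.3. Spop, the adaptor that marks Gli proteins for breakdown, was 45.7, 34.2, 26.7 and 45.0, and it fell to E15.5 (adjusted p = 0.00213 for the step from E13.5) and rose to E18.5 (adjusted p = 8.72e-05). Evc, a ciliary partner of Smoothened, was 1.70, 0.503, 0.456 and 1.16, while Kif7, the kinesin that organises the tip of the cilium, was 1.05, 0.581, 0.409 and 0.265.

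Ciliary transport genes likewise rose from E15.5 to E18.5. Of 18 tested genes 11 rose and 1 fell, against 19.4% and 14.2% of all genes. Of genes with a highest stage of 0.5 to 8 FPKM, 44% were called in either direction in this step. The rise was a step up from a low at E15.5: the list summed to 165, 123, 104 and 153 scaled FPKM. Between the ends 7 of the 18 rose and 6 fell, and of the 25 transduction genes 6 rose and 8 fell. Of all genes 19.9% rose and 23.7% fell between the ends. Ift57, a subunit of the transport train, was 15.4 ± 1.20, 13.6 ± 0.678, 8.92 ± 0.431 and 27.7 ± 1.64, a 3.10-fold rise in the last step (adjusted p = 6.67e-05). Bbs4 of the BBSome was 8.65, 3.36, 2.32 and 5.37, and it rose 2.32-fold in that step (adjusted p = 0.000212). By the main limma fit none of the 9 core Hedgehog genes rose from E15.5 to E18.5, where 19.4% of all genes did. For only 9 genes this count is not far from that share. Ihh rose in this step with limma voom on the recovered reads (adjusted p = 0.0193).

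Of 21 tested genes known as Hedgehog targets in gut mesenchyme or other tissues, 3 rose and 14 fell from E11.5 to E13.5 and 4 rose and 15 fell between the ends, against 14.6% and 23.5%, and 19.9% and 23.7%, of all genes. The numbers that rose were near those shares. On this list Foxf1, Nkx3-2 and Barx1 are also on the mesenchyme list used above. Bmp4, a signal that gut mesenchyme makes in response to Hedgehog, was 13.1 ± 1.10 at E11.5 and 0.0116 to 0.0745 later (first step adjusted p = 3.13e-06). Foxf1, a direct target in gut mesenchyme, was 1.42, 0.379, 0.183 and 0.0809 (adjusted p = 0.00392 for the first step, 0.0609 with a pseudocount of 0.1). The growth factor binding protein gene Igfbp3 was 13.7, 0.754, 1.03 and 3.32 (adjusted p = 6.23e-05), and Sfrp1, a Wnt antagonist that could not be tested, was 42.0, 1.77, 1.62 and 1.71. Among the genes that rose, Nkx2-2 and Pax6 are endocrine pancreas factors, at 0.385, 25.2, 14.8 and 24.6 and at 0.342, 4.48, 3.90 and 11.2 (first step adjusted p = 1.77e-06 and 3.97e-06). Mycn, a growth regulator, was 24.7, 12.6, 2.48 and 9.06, falling in the first step (adjusted p = 0.00213), falling 5.09-fold from E13.5 to E15.5 (adjusted p = 0.000334) and rising 3.65-fold to E18.5 (adjusted p = 0.000367). Of the cyclin genes on the list, Ccnd1 was 34.5, 31.9, 15.2 and 41.1, Ccne1 was 29.2, 31.1, 20.1 and 6.77, and Ccnd2, which could not be tested, was 32.9, 53.7, 61.9 and 47.6.

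Outside the comparisons with E11.5, the calls among the 9 genes were the falls of Ihh and Shh, the rise of Ptch1 and the fall of Smo from E13.5 to E15.5, and the falls of Hhip, Smo and Ptch1 from E15.5 to E18.5. Mesenchyme markers moved in these steps too: of 13 tested, 6 rose and none fell from E13.5 to E15.5, and 6 rose and 1 fell from E15.5 to E18.5. Lum was 0.339, 2.15 and 11.4 and Dcn, another matrix proteoglycan gene, 0.472, 3.04 and 14.7 over E13.5, E15.5 and E18.5, while the sum of the list, to which Vim gave the most, was 54.7, 51.5 and 87.4. The otic sum was between 0.683 and 2.45. Over the same steps the pancreatic epithelium sum was 4170, 11320 and 5804, and the part of these lists in the changes of the 9 genes was not tested.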

How the data were processed

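RNA-seq of fetal mouse pancreas was deposited by the authors as 1 table a stage of mean FPKM per Ensembl gene, with reads aligned by HISAT2 2.0.5 to mm10, per the submitters' processing notes. No source used here states the counting tool, its annotation or its strand setting. Symbols and union exon lengths came from GENCODE mouse M21 for 54495 of 54532 IDs. FPKM multiplied by exon length was resolved into whole reads of 2 libraries a stage. Of the genes tried, 96.3% to 96.5% could be separated and 864 to 896 a stage could not. The implied denominators were 10866500 to 18597800 a library. They are not plain totals of the recovered reads. FPKM times exon length, summed over genes, was 0.899, 0.966, 1.26 and 1.08 times the denominators from E11.5 to E18.5.

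FPKM was scaled by the median of ratios (factors 0.961 to 1.03). Differences are on log2(scaled FPKM + 1). The planned call was the rule of size. The secondary one was limma 3.58.1 (R 4.3.3), fitted with a trend of variance on level, with p-values adjusted by Benjamini and Hochberg's method over 28226 genes. Both procedures were tested on simulated data. Intervals of reads are exact at 95%, and intervals and the floor of 3 reads cover counting error only.

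The members and gene lists were chosen with earlier results of these data known. All 9 members are named. Of each list, genes past the rule of size (up to 4 a comparison) and the 2 with the highest level could be named, of each marker list the 3 highest, and for each member at 1 FPKM or more the 2 genes with the nearest course. Boc, Cdon, Lrp2, Ptchd1, Scube1, Scube3, Disp1, Hhat, Evc, Kif7, Foxf1, Pdx1, Twist1, Sox2, Cdx2, Tff2, Cldn18 and Ccnd2 were named outside that rule, after their values were seen. Alternatives were other scalings, pseudocounts, fold and level limits, limma without trend, each library left out and, added after seeing the data, limma voom on the recovered reads. Promoter windows came from RefSeq.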

Additional observations from a re-analysis of the deposited data

How the results depend on the processing

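Of the Hedgehog genes called by limma, the sign held under all settings run, and 13 of 278 alternative values lost the call. By the rule of size none of the 9 genes was called, and other limits changed this. Higher at E13.5 than at E11.5 was 1 gene with no further scaling, with the same total or with the upper quartile, and 2 with a minimum of 1 FPKM or none. Lower there were 3 with a minimum of 1 FPKM and 4 with none. Lower at E15.5 than at E13.5 was 1 with no further scaling, the upper quartile or a minimum of 1 FPKM, and 2 with the same total or no minimum. At E18.5 against E15.5, 2 were higher with no minimum, and 1 was lower with a minimum of 1 FPKM and 2 with none. At E18.5 against E11.5, 1 was lower with the same total, 4 with a minimum of 1 FPKM and 6 with none.

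Of the other 75 pathway genes, the same total gave 2 higher at E13.5 than at E11.5, 14 lower at E15.5 than at E13.5 and 19 lower at E18.5 than at E11.5. A minimum of 1 FPKM gave 4 higher and 23 lower in the first comparison, 4 lower in the second, 13 higher in the third, and 5 higher and 25 lower between the ends. No minimum gave 4 higher and 23 lower, then 4 higher and 9 lower, then 16 higher and 6 lower, and 5 higher and 25 lower. At least 1.5-fold gave 2 higher in the first comparison, 12 lower in the second and 14 higher in the third, and at least 3-fold gave 6 lower, 1 lower, and 2 higher with 0 lower.

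By limma, the gene that rose from E13.5 to E15.5, Ptch1, was lost with the same total (0 genes), and 1 gene, Ihh, rose from E15.5 to E18.5 with voom. Voom called 61.2%, 40.7%, 49.3% and 64% of genes in either direction, against 38.1%, 24.2%, 33.6% and 43.6%. Leaving out 1 library gave 2 to 3 members that rose and 3 to 4 that fell from E11.5 to E13.5, 1 and 2 to 3 to E15.5, 0 and 3 to E18.5, and 0 and 7 between the ends. Ptch1 from E11.5 to E13.5, not called, was called without the trend (adjusted p = 0.0417), with the same total (0.0311) and with voom (0.0365), and between the ends with the same total (-0.37, adjusted p = 0.00305). With the same total Gas1 (-0.39) and Adam17 (-0.42) reversed from E13.5 to E15.5, as did Adam17 (-0.29) and Ccnd1 (-0.33) between the ends. The cause was not tested. No paired analysis was possible because the labels give 1 sample a stage and no replicate numbers. Levels of a few reads a library, as for Dhh and the later Gli1 and Gli2 values, limit what later steps can show.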
